A study of Zea mays with 144 samples.

Results

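Among 12160 spotted cDNA features measured in maize anthers, 70 were consistently higher in the lower than in the upper floret. They were chosen on the floret ratio itself, the log2 ratio of upper over lower floret at the same stage. A feature was kept when its mean over 12 such ratios (6 stages in 2 sets of RNA pools) was -0.7 or less and all 12 ratios were below 0. All 12 ratios were below 0 in 3.96% of all features, and both limits were met by 75, or 0.617%. The features of 7 gene names (hsp22, PMP3, expa2, cc7, TIFY2, LDH and ec2e) were left out by the rule. Of the features so left out, 5 met the limits, and they belong to PMP3, expa2, cc7 and ec2e. Because the floret ratio chose the features, it is given here as a description and carries no test. Tests are given for the changes between stages, which were measured on other slides of the same RNA pools.

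The anthers came from the inbred line Ky21 and were assigned under the microscope to 6 stages: meiocyte, the mixed dyad/tetrad stage, tetrad, early microspore, mid-microspore and the mixed mid/late microspore stage. Each stage and floret had 2 RNA pools, 24 in all, made from 1 to 4 plants with 8 to 20 anthers per tassel, and the RNA was amplified before labelling. All groups share the line, no treatment is labelled, and the pools named mixed hold more than 1 stage. Of 48 slides read in 2 colours, 24 set the upper against the lower floret of 1 stage in both dye orders (the floret slides) and 24 set stages of 1 floret against each other (the stage slides). The pool number in the labels divides the pools into set 1 and set 2, and both pools of a slide belong to the same set.

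The direction of the ratio is only likely. Dyes are labelled, but which dye stands in the numerator is not, and the sign of the floret slides did not follow the dyes. They read as upper over lower provided that stage slides hold Cy5 over Cy3, which rests on the meiosis genes falling from the first to the last stage. With the opposite sign every higher and lower below, between florets and between stages, is exchanged. In bulk tissue, fewer cells of a type and less RNA per cell cannot be told apart.

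A maize tassel spikelet carries a pair of florets, and the upper one develops ahead of the lower one, so that anthers of the same stage are reached at different times within a spikelet. Inside the anther, meiocytes pass through dyads and tetrads to free microspores, which then mature to pollen. They are surrounded by wall layers, of which the innermost, the tapetum, supplies the microspores and forms their outer coat. The outer wall layers hold green plastids.

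Little was known of the features' identity from the array annotation. One gene was given for 25 features (25 genes), several for 1 and none for 44. A gene was thus given for 37.1% of the 70 features and for 54.5% of all features. Only 2 features had a gene name: feature 8977, annotated as bZip37 (LOC100280716), and feature 8992, annotated as Dof1, also called MNB1a (LOC100283759). bZip37 belongs to the basic leucine zipper transcription factors, and Dof1 is a zinc finger transcription factor known in maize for binding promoters of carbon metabolism genes. The other features are given by their feature number and, where the annotation holds one, their locus name.

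The 70 features had a median floret ratio of -0.95 (range -3.06 to -0.70), on the log2 scale. Over all 12160 features the median was 0.01, with the 5th percentile at -0.44 and the 95th at 0.45. A mean of -1 or less was reached by 33 features and a mean of -2 or less by 8. In 45 of the 70 the ratio was below 0 on all 24 floret slides. For 27 features the mean of both sets was at -0.7 or less at every one of the 6 stages, and for 11 each of the 12 ratios was. By contrast, 17 features had a median of the 12 ratios above -0.7, so that in these the mean lay below the median.

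**Figure D1:**
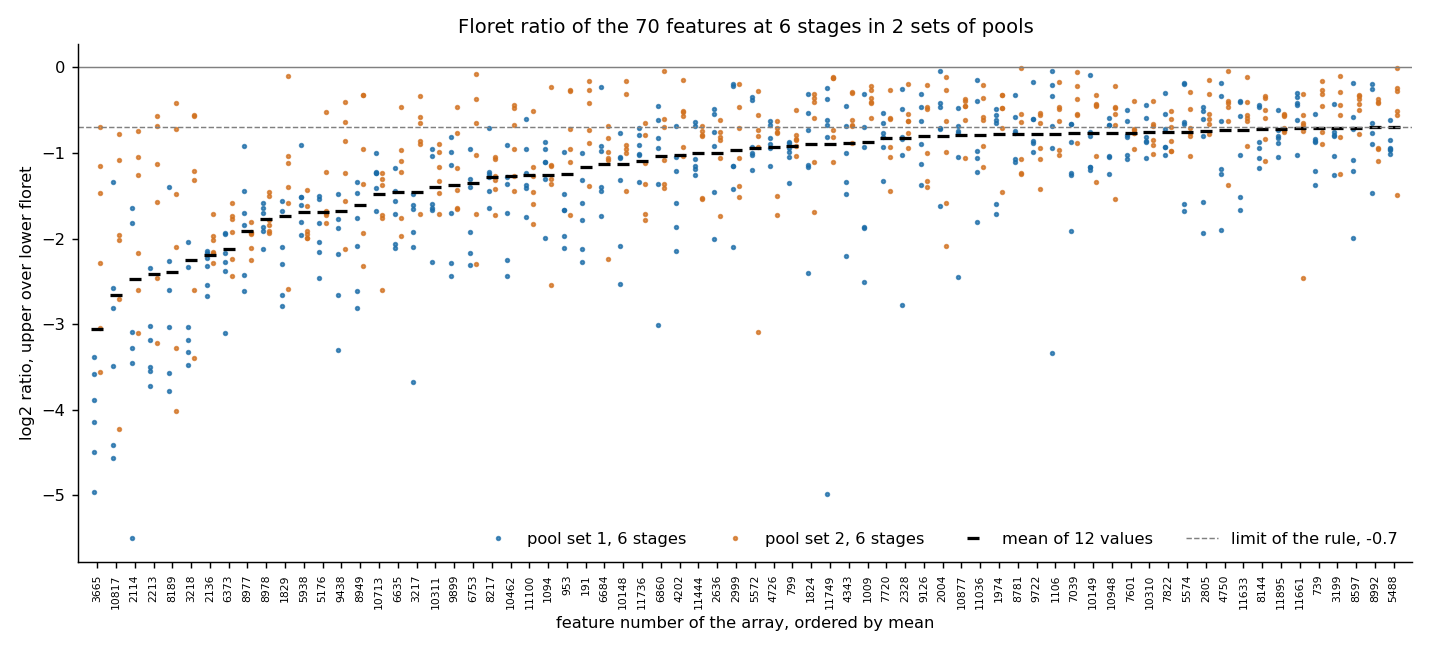
Floret ratio (log2, upper over lower floret) of each of the 70 features on the vertical axis, ordered by mean along the horizontal axis; points are the 6 stages in set 1 (blue) and set 2 (orange), black bars the mean of 12 and the dashed line the limit of -0.7. The 8 features at the left have means of -2 or less, and each of them has a lower mean in set 1 than in set 2.

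Feature 3665, which has no gene in the annotation, had the lowest mean, -3.06, or 8.32-fold higher in the lower floret. In set 1 its ratios were -4.15, -3.59, -3.39, -4.96, -4.50 and -3.89 from the meiocyte to the mid/late microspore stage. In set 2 they were -3.04, -3.56, -1.47, -2.29, -1.15 and -0.70. The sets were close at the dyad/tetrad stage and far apart at the last 2 stages, where set 1 stayed low and set 2 approached 0.

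Feature 10817, also without a gene, followed with a mean of -2.66 (SD 1.30 over the 12 ratios). Its ratios in set 1 were -4.57, -4.41, -3.49, -1.33, -2.81 and -2.58 from first to last stage, and in set 2 -2.70, -4.23, -2.01, -1.96, -0.78 and -1.08. Both sets were lowest at the first 2 stages in this feature, whereas in feature 3665 only set 2 was.

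The next 4 features had means between -2.48 and -2.25. Feature 2114 (LOC100192046) had a lowest ratio of -5.50, a median of -2.39 and a highest of -0.75. For feature 2213 (LOC100280101) these were -3.72, -2.74 and -0.57, and for feature 8189 (LOC100192685) -4.02, -2.43 and -0.41. Feature 3218, without a gene, ranged from -3.47 to -0.55 with a median of -2.47. In each of these 4 set 1 was lower than set 2 at all 3 microspore stages, and the highest ratio came from the last stage of set 2. At dyad/tetrad set 2 was the lower one in features 8189 (-4.02 against -3.04) and 3218 (-3.39 against -2.34).

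The last 4 of the 10 features with the lowest means varied far less. Feature 2136 had a mean of -2.20 with an SD of 0.25, ranging from -2.67 to -1.72. Feature 6373 had a mean of -2.12 (SD 0.41) and ranged from -3.11 to -1.58. Neither has a gene in the annotation. Feature 8978, without a gene, had a mean of -1.77 and an SD of only 0.20, from -2.12 to -1.45, so that no stage or set stood apart.

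The feature annotated as bZip37 had a mean floret ratio of -1.91 (SD 0.44), or 3.76-fold higher in the lower floret. Its ratios in set 1 were -1.45, -2.61, -0.92, -2.42, -1.70 and -1.85 from first to last stage, and in set 2 -2.25, -1.94, -2.11, -1.92, -1.94 and -1.81. Set 2 was nearly level over development, and the weakest ratio was that of the tetrad stage in set 1. The array holds 3 other features annotated with the same gene, and none of them behaved so. Feature 80 had a mean of -0.05 with 7 of 12 ratios below 0, feature 1429 a mean of -0.11 with 9 of 12, and feature 11777 a mean of -0.21 with 7 of 12. Features of the same gene thus disagreed, and which of them reports the bZip37 transcript was not tested.

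The feature annotated as Dof1 lay just inside the limit, with a mean of -0.70 (SD 0.39), or 1.62-fold higher in the lower floret. Its ratios in set 1 were -0.25, -1.47, -0.20, -0.76, -0.89 and -0.65 from first to last stage, and in set 2 -0.41, -0.36, -0.94, -0.42, -0.95 and -1.09. All 12 were below 0, as the rule requires, and the mid-microspore and mid/late microspore stages were at -0.65 or lower in both.

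In all, 6 features lay within 0.02 of the limit on the inner side, from feature 11661 at -0.71 to feature 5488 at -0.70. Feature 4053 at -0.69 and feature 11826 at -0.68 lay just outside it, with all 12 ratios below 0. A further 66 features had a mean of -0.7 or less but at least 1 ratio at or above 0, and in 36 of these it was exactly 1. The mirrored limits, for features higher in the upper floret, were met by 45 features.

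Including bZip37, 9 of the 25 features with 1 gene had other features of that gene on the array. For feature 3217 (LOC100500961), with a mean of -1.46, the other feature of the gene, 730, had a mean of -0.75 with 11 of 12 ratios below 0. For feature 1824 (pco063745), at -0.89, feature 4480 had -0.66 with 12 of 12 below 0. For feature 11749 (LOC100283773), at -0.89, feature 3961 had -0.51 with 10 of 12 below 0. These pairs ran the same way. For features 8189, 9438 (LOC100283627), 6753 (LOC100273249) and 4726 (LOC100284159), the other feature of the gene had a mean between 0.02 and 0.27. Feature 9899 (LOC100381502), at -1.37, had 3 others between -0.27 and 0.02.

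In the array's numbering the 70 features held 4 pairs of consecutive numbers. Over the 24 pools of the stage slides r was 0.81 for features 8977 and 8978 and 0.72 for 3217 and 3218. It was 0.17 for 10310 and 10311 and 0.03 for 10148 and 10149. The 132 neighbours that are not among the 70 had a median floret ratio of -0.11, from -1.07 to 0.58, against 0.01 over all features. The number of such pairs in other sets of 70 features was not computed, and a part of array position was not tested. Of the genes that could be placed in the maize reference, those of features 8977 (bZip37) and 10948 (LOC100502113) were the only ones within 10 genes of each other, 8 genes apart. Feature 10948 had a mean floret ratio of -0.76.

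By stage, the median floret ratio of the 70 features was -0.95 in meiocyte anthers, -1.18 at dyad/tetrad, -0.96 at tetrad, -1.04 at early microspore, -0.97 at mid-microspore and -1.0 at mid/late microspore. No stage stood far from the others. Single features were lowest at different stages: 18 at dyad/tetrad, 18 at early microspore, 13 at mid/late microspore, 10 at mid-microspore, 7 at tetrad and 4 at meiocyte. As many features (35) were lower over the 3 microspore stages as over the 3 meiotic stages.

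The sets of pools differed as well. Set 1 had a median of -1.07 and set 2 one of -0.85, with 53 of the 70 features lower in set 1. Set 1 was also wider over the whole array. The 5th and 95th percentiles of all features were -0.55 and 0.54 in set 1, and -0.43 and 0.45 in set 2. A set mean of -0.7 or less was reached by 67 features in set 1 and by 46 in set 2. In 8 features the set 1 mean was more than 1 below the set 2 mean: 3665, 10817, 2114, 2213, 3218, 9438, 3217 and 191. Between the dye orders the medians were -1.0 (upper floret in Cy5) and -1.10 (upper floret in Cy3), and for no feature did the dye orders differ by more than 1. The scans at low, medium and high intensity gave medians of -1.26, -0.91 and -0.85, and 65 of the 70 features were closer to 0 in the high than in the low scan, so the size of a ratio depended on the scan.

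In 4 features a single ratio at -3 or less stood beside a median above -1. Feature 11749 had -4.99 in the dyad/tetrad slides of set 1, while its other 11 ratios lay between -1.10 and -0.11 and its median was -0.64. The dye swap of those slides had the weakest correlation of the 12 pairs over all features, r = 0.159. Feature 1106 ranged from -3.34 to -0.04 with a median of -0.56. Feature 5572 had a lowest ratio of -3.09 and feature 6860 one of -3.01. In these 4 the mean was thus well below the median.

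The stage slides, which did not enter the choice, showed how the 70 features changed over development within each floret. On these slides a pool's value is its log2 difference from the average of all 6 pools that share its floret and set. Values were tested with limma, a linear model that shares its estimate of spread over all features, on 2 pools per stage and floret, and a feature passed at an adjusted p (Benjamini-Hochberg over all 12160 features) under 0.05. The pools are labelled as biological replicates, and p-values reflect only how far these 2 per group spread. From the meiocyte to the mid/late microspore stage, 9 of the 70 features rose in upper florets, against 11.2% of all features, and 4 fell, against 11.5%. In lower florets 11 rose, against 12.7% of all features, and 4 fell, against 12.3%. In total 13 of the 70 passed in upper florets (22.7% of all features) and 15 in lower florets (25% of all features). The shares that rose, 12.9% and 15.7%, were near those of the array, and the share that fell, 5.71% in each floret, was below it.

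An effect of stage in general, by the F test over the 6 stages, was passed by 13 of the 70 in upper florets (32.6% of all features) and by 11 in lower florets (32% of all features). In 54 of the 70 it was passed in neither floret, as in 58.9% of all features. The standard error of the upper floret change had a median of 0.38 among the 70 and 0.24 among all features, so a change of a given size passed less readily here. The median change from first to last stage was 0.23 in upper and 0.05 in lower florets, against -0.02 and 0.02 over all features.

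In both florets 6 features rose, against 8.32% of all features, and 3 fell, against 7.78%. Feature 9126 (LOC100281623) had upper floret values of -1.18 and -0.99 in meiocyte anthers and 1.87 and 2.00 at mid/late microspore. In lower florets it went from -1.44 and -0.90 to 1.96 and 2.17. Both late pools lay above every earlier pool in each floret. The rise was 3.02 ± 0.34 in upper (SE, limma adjusted p = 9.77e-05) and 3.24 ± 0.34 in lower florets (limma adjusted p = 5.04e-05).

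Feature 2004, without a gene, had the largest change of the 70, in lower florets. There its values were -1.97 and -2.34 at the first stage, between -1.08 and -0.28 at the next 3 stages, 1.73 and 1.94 at mid-microspore and 2.13 and 2.61 at the last stage. In upper florets it went from -0.44 and -1.0 to 2.05 and 2.25. The pools of the last 2 stages did not overlap with those of the first 4 in either floret. The rise was 4.53 ± 0.37 in lower (limma adjusted p = 7.98e-06) and 2.87 ± 0.37 in upper florets (limma adjusted p = 0.000227). With the high scan alone the call was lost in both florets (lower 2.40, limma adjusted p = 0.106, and upper 2.83, adjusted p = 0.0658), and with the low scan alone in upper florets (2.92, adjusted p = 0.202).

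Feature 11736 (LOC100286307) rose by 2.08 ± 0.31 in upper (limma adjusted p = 0.000667) and 2.62 ± 0.31 in lower florets (limma adjusted p = 0.000129). Feature 7720 (LOC100284274) rose by 1.90 ± 0.31 and 1.99 ± 0.31 in upper and lower florets. In both features the last 2 stages lay above 0 in all 8 pools and the meiocyte stage below 0 in all 4. Feature 1094 (LOC100284346) rose by 1.87 ± 0.41 and 1.62 ± 0.41, but in lower florets its dyad/tetrad pools, at 0.23 and 0.52, were also above 0. That call was lost in both florets once columns were scaled to one spread (upper 1.34, limma adjusted p = 0.102, lower 1.20, adjusted p = 0.122) and, in both florets, when the last-stage pool of set 2 was left out.

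Dof1 also rose from first to last stage. Its values in upper florets were -0.59 and -0.48 in meiocyte anthers, 0.75 and 0.14 at mid-microspore and 0.70 and 0.47 at mid/late microspore. In lower florets they were -1.06 and -0.51, then 1.13 and 0.71, then 0.89 and 0.77. The last 2 stages lay above every pool of the first 4 stages in lower florets, while in upper florets a dyad/tetrad pool of 0.15 reached the lowest of them. The rise was 1.12 ± 0.27 in upper (limma adjusted p = 0.0104) and 1.62 ± 0.27 in lower florets (limma adjusted p = 0.00106). The upper floret call was lost without the meiocyte pool of set 1 (1.06, limma adjusted p = 0.0773), without the last pool of set 1 (0.98, p = 0.0824 so adjusted) and with columns scaled to one spread (0.76, adjusted p = 0.0792). Dof1 thus rose late in the anthers of both florets in the main fit, whereas its floret ratio below 0 throughout was required by the rule.

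Stage values for bZip37 are given for feature 8977 alone, which did not pass in either floret. Its first-to-last change was 0.02 ± 0.43 in upper and -0.46 ± 0.43 in lower florets (limma adjusted p = 0.978 and 0.488), and its values at the 12 pools of each floret lay between -1.23 and 0.82.

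Falls in both florets passed for 3 features. Feature 1824 (pco063745) went from 0.45 and 1.87 in meiocyte anthers to -1.38 and -1.41 at mid/late microspore in upper florets, and from 0.61 and 1.30 to -1.36 and -1.06 in lower florets. It fell by 2.56 ± 0.56 (limma adjusted p = 0.00622) and by 2.17 ± 0.56 (limma adjusted p = 0.0138). Both calls were lost without the meiocyte pool of set 2 (upper -1.70, adjusted p = 0.0747, and lower -1.75, adjusted p = 0.122).

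Feature 8144 (LOC100274080) dropped early. In upper florets its values were 0.75 and 1.13, then 0.68 and 0.68, and from the tetrad stage on between -0.82 and -0.15. In lower florets the tetrad pools were still at 0.28 and 0.25, and the drop to -0.72 and -0.52 came at early microspore. The fall was 1.24 ± 0.17 in upper (limma adjusted p = 0.000424) and 1.25 ± 0.17 in lower florets (limma adjusted p = 0.000346), and in both florets the first-stage pools did not overlap with those of the last 3 stages. With 1 scan alone the adjusted p was 0.0505 to 0.255 in upper florets, and in lower florets 0.129 with the low and 0.354 with the medium scan. Feature 11749 changed by only -0.59 ± 0.20 and -0.61 ± 0.20, and its upper floret call was lost under 24 of 31 alternatives.

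Of the features that passed in 1 floret, 10817 rose in upper florets from -1.80 and -0.87 in meiocyte anthers to 2.02 and 1.46 at early microspore, and stood at 0.40 and 1.36 at the last stage. In lower florets it was at -0.51 and 0.10 first and at -0.61 and -0.00 last. The upper floret rise was 2.22 ± 0.65 (limma adjusted p = 0.0281) and the lower floret change -0.10 ± 0.65 (limma adjusted p = 0.935). The upper call was lost without the meiocyte pool of set 1 (1.66, adjusted p = 0.224) or the mid/late pool of set 2 (1.64, adjusted p = 0.2), and with the medium or the high scan alone. The difference between florets, 2.32 ± 0.92, did not pass (interaction F test, limma adjusted p = 1). The other upper floret calls alone were rises of feature 953 (1.36 ± 0.41) and feature 8781 (1.01 ± 0.32) and a fall of feature 2999, which has 2 genes (-1.21 ± 0.37). Feature 953 lost its call without any single one of its 4 upper first- and last-stage pools (1.18 to 1.54, limma adjusted p 0.0739 to 0.152), and feature 8781 under 8 of 31 alternatives. Feature 2999 was at -0.57 without the last-stage pool of set 1 (adjusted p = 0.354) and at -0.78 without the meiocyte pool of set 1 (adjusted p = 0.285).

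In lower florets alone, feature 10149 rose by 2.08 ± 0.68, feature 11444 by 1.56 ± 0.42, feature 2636 (LOC100285916) by 1.37 ± 0.46, feature 5488 by 1.17 ± 0.38 and feature 9722 by 0.58 ± 0.18, with limma adjusted p between 0.0177 and 0.0467. Without the lower last-stage pool of set 2, feature 10149 was at 1.08 (adjusted p = 0.382), feature 2636 at 0.74 (0.391) and feature 5488 at 0.46 (0.442), and the call of feature 2636 was lost under 22 of 31 alternatives. Feature 11444 lost its call under 4 alternatives, and without the lower meiocyte pool of set 1 it was at 1.09 (adjusted p = 0.192). Feature 9722 was at 0.02 with the high scan alone (adjusted p = 0.939). Feature 6373, among the 10 with the lowest floret ratio, fell in lower florets by 1.28 ± 0.38 (limma adjusted p = 0.0256) and had -0.90 ± 0.38 in upper florets (adjusted p = 0.106). Without its lower meiocyte pool of set 1, at 1.30 beside 0.03 in set 2, the change was -0.52 (adjusted p = 0.354). For none of these features was the difference between florets past the threshold.

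No floret by stage interaction passed for any of the 70 features or of the 12160 (0% of all features, limma). At an unadjusted p under 0.05 there were 4 of the 70, against 4.72% of all features: 10817, 2004, 2805 and 8144. With the low scan alone, or the median of scans, 2 features of the array passed, none of the 70. Some fits with a single pool left out, such as the lower mid-microspore pool of set 2, also let features of the array pass, none of the 70. On slides that the choice did not use, no difference between florets in the course over stages was thus detected with 2 pools a group.

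**Figure D2:**
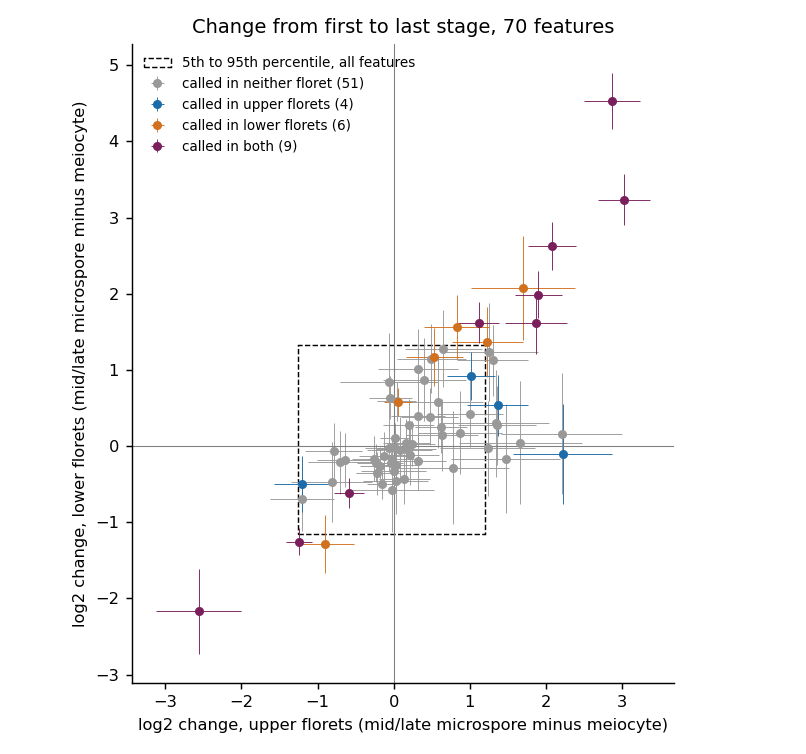
Change from meiocyte to mid/late microspore in upper (horizontal) and lower florets (vertical), log2, with standard errors of the limma fit, for each of the 70 features; colours mark in which floret a feature passed and the dashed box spans the 5th to 95th percentile of all features. Most points lie near 0, with 6 features called higher in both florets at the upper right and 3 called lower in both at the lower left.

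Between neighbouring stages, averaged over both florets, 10 of the 70 features passed at 1 or more of the 5 steps, against 24.7% of all features. None passed from meiocyte to dyad/tetrad (0.411% of all features higher and 0.65% lower). From early to mid-microspore features 2004 (2.26 ± 0.26), 9126 (1.45 ± 0.24), 11736 (1.15 ± 0.22) and 8992, Dof1 (0.86 ± 0.19), rose and feature 6373 fell by 1.03 ± 0.27, with limma adjusted p between 0.000263 and 0.0383. Feature 9126 rose again by 0.97 ± 0.24 at the last step (1.85% of all features higher), where feature 11749 fell by 0.56 ± 0.14 (1.93% lower). From tetrad to early microspore feature 10817 rose by 1.81 ± 0.46 (4.66% of all features higher), while features 11036 and 8144 fell by 1.39 ± 0.37 and 0.57 ± 0.12 (6.3% lower). From dyad/tetrad to tetrad features 2805 and 8144 fell by 0.91 ± 0.24 and 0.67 ± 0.12, where 0.288% of all features fell. The step with most calls among the 70, early to mid-microspore, was also the one with most calls in the array (6.57% higher and 8.01% lower).

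At 3 steps the values of the 70 features leaned one way, although few passed singly. From dyad/tetrad to tetrad 62 of 70 had a value below 0, against 53.8% of all features, with a median of -0.24 against -0.02. From mid-microspore to mid/late microspore 9 of 70 were below 0, against 49.3% of all features, with a median of 0.27 against 0.00. From meiocyte to dyad/tetrad 15 of 70 were below 0, against 47.5%. The members share pools, so these counts are not independent of each other.

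Profiles over the 24 pools of the stage slides linked some of the 70 features into groups. Linking at a correlation of 0.9 or more, a limit chosen after the values were seen, joined 21 of 2415 pairs (0.870%), against 0.116% of all feature pairs. The correlations are a description, since the pools share slides, sets and dye orders. This gave groups of 9, 4 and 5 features, with 2 further pairs (9899 with 6860 and 10877 with 8597), which left 48 features unlinked. Features were joined in chains, so not every pair within a group reached the limit. The lowest r within a group was 0.57 in the group of 9, 0.76 in that of 4 and 0.81 in that of 5. Over the 12 floret ratios, r within these groups ran from 0.56 to 0.96, from 0.06 to 0.48 and from -0.58 to 0.70 in this order.

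The group of 9 held features 3665, 2114, 2213, 8189, 3218, 9438, 8949 (LOC100194290), 6753 and 953, among them 5 of the 6 features with the lowest floret ratio. Their course over stages differed between the sets. Each value is relative to the 6 pools of its own floret and set, so levels cannot be compared between sets. In lower florets the median of the 9 was 1.44 in the dyad/tetrad pool of set 2 but 0.12 in that of set 1. It was 1.10 in the early microspore pool of set 1 but -0.28 in that of set 2, and 0.53 against -1.14 at mid-microspore. At tetrad both lower pools were low, at -0.75 and -0.96. In upper florets the last-stage pools had medians of 1.33 in set 2 and 0.38 in set 1, and between -0.55 and 0.08 in the other 10 pools.

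The floret ratio of these 9 features also differed between the sets at some stages. Its median at mid-microspore was -3.33 in set 1 and -0.64 in set 2, and at mid/late microspore -2.61 and -0.41. At dyad/tetrad it was -2.33 and -3.11, at tetrad -1.82 and -1.13, and at early microspore -3.47 and -1.56. In meiocyte anthers the sets were close, at -2.26 and -2.46. Whether the floret ratio tracked the pool values of the stage slides was not tested. Of the 9, only feature 953 passed a first-to-last test, in upper florets.

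The 4 features 2136, 8978, 5938 and 5176 formed a steady group, none with a gene in the annotation. The median floret ratio lay between -2.29 and -1.44 at every stage and set, and the SD of the 12 ratios was 0.20 to 0.49 per feature. Their single lowest and highest ratios were -2.67 and -0.53. None of the 4 passed a stage test in either floret. Feature 8978 is numbered next to the bZip37 feature, and their pool values had r = 0.81 over the 24 pools, below the limit for linking.

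The late-rising group comprised features 11736, 7720, 9126, 2004 and 8992 (Dof1), all of which passed in both florets as described above. Their floret ratios were modest, with means from -1.10 to -0.70, and the median per stage and set lay between -1.05 and -0.42. Named features outside the 70 with the profile most like this group were ZmCASP1 (feature 11735, r = 0.98), a gene of Casparian strip membrane proteins, rbcS (feature 9047, r = 0.96), the small subunit of the carbon-fixing enzyme Rubisco, SnRK2.6 (feature 10412, r = 0.94), a protein kinase gene, aldh5 (feature 344, r = 0.94), an aldehyde dehydrogenase gene, and gst18 (feature 11050, r = 0.94), a glutathione transferase gene. These were named after their values were seen. Their mean floret ratios were -0.55, -0.63, 0.25, 0.13 and -0.25 in this order, each with ratios on both sides of 0, so that a like course over stages went with either direction between florets. Features 11735 and 11736 are consecutive in the array's numbering and are annotated with different genes.

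**Figure D3:**
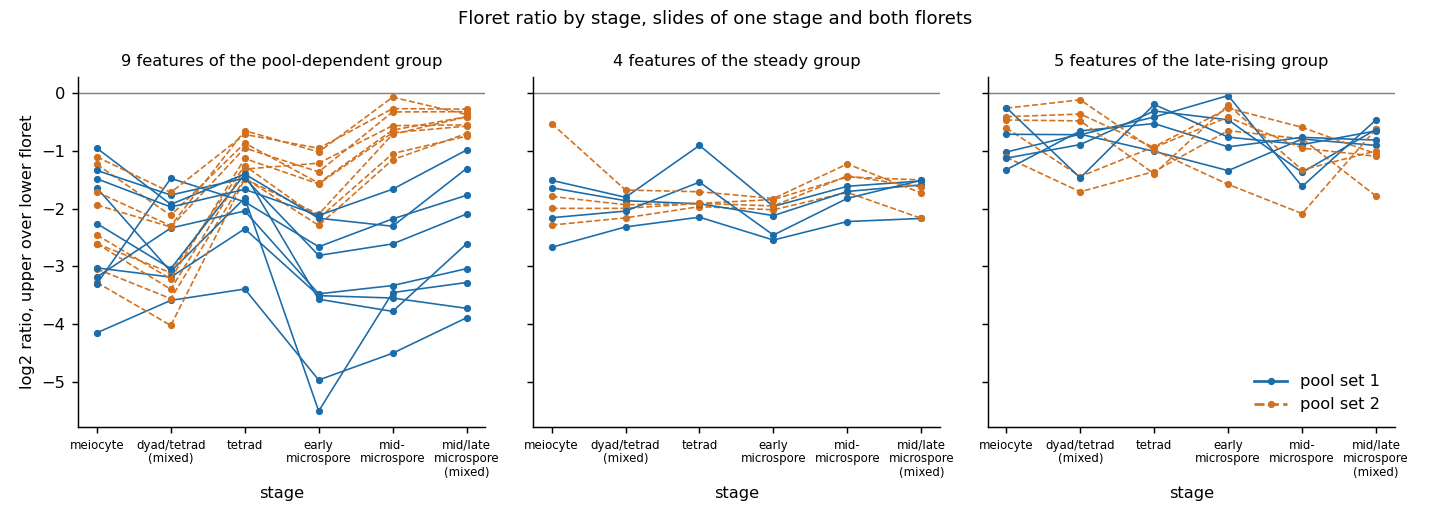
Floret ratio (log2, upper over lower floret) by stage for the 3 groups of features linked in chains by their stage-slide profiles; each line is 1 feature in set 1 (blue, solid) or set 2 (orange, dashed). The 9 pool-dependent features part by set at the last 2 stages (medians of -3.33 and -2.61 in set 1, -0.64 and -0.41 in set 2), while the 4 steady features stay together.

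**Figure D4:**
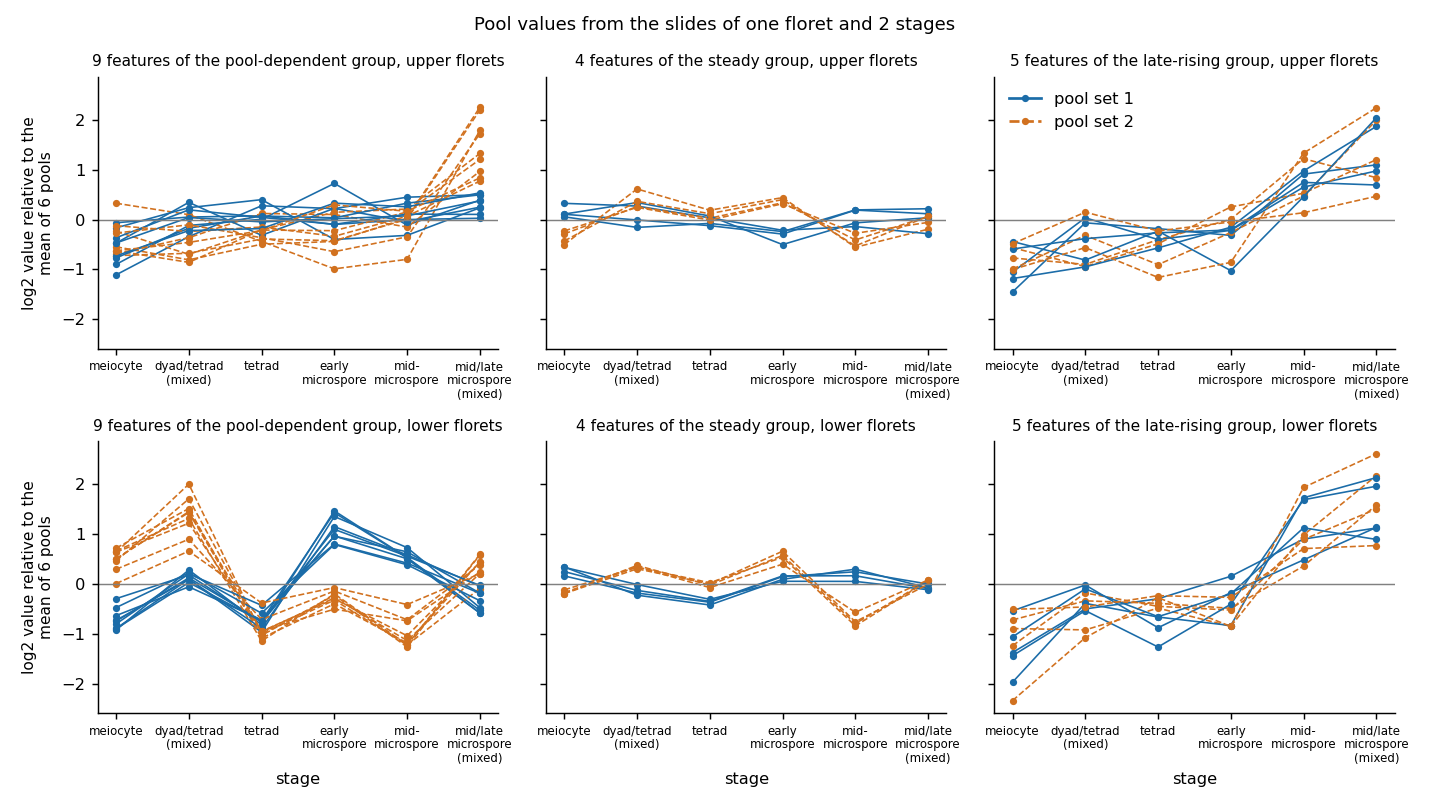
Pool values (log2, relative to the mean of 6 pools of the same floret and set) from the stage slides for the same 3 groups, upper florets in the top row and lower florets in the bottom row; lines as features and colours as sets. The 5 late-rising features climb from early microspore on in both sets, whereas the 9 pool-dependent features take a different course in each set in lower florets.

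None of the 70 features belonged to the marker and pathway lists. These were matched by gene name, which 68 of the 70 lack, and the rule had left out 7 gene names, so that a match was hardly possible. Green tissue markers (Rubisco small subunit, chlorophyll-binding and photosystem genes) had a median floret ratio of -0.26 over 13 features, with 11 of 13 below 0 and a range of -0.63 to 0.46. From first to last stage 6 of the 13 rose and 1 fell in upper florets, and 8 rose and 1 fell in lower florets. These markers ran in the same direction as the late-rising group, and their part in the result was not tested. Markers of meiocytes had a median floret ratio of -0.17 (4 features, of which 3 fell in upper and 2 in lower florets). The sign of the stage slides rests on meiosis genes falling, so this fall is not a separate result. Feature 8321 (rad51b) changed by -0.20 in upper and 0.18 in lower florets and passed in neither. The 1 tapetum marker found, ms23, a transcription factor of tapetum differentiation, had 0.37. The 6 pollen features had a median of 0.03. The 1 match to the kernel storage list, through the name GLB1, had 0.10 and is also named Hb and Hbm, so it was not taken as a storage marker. The arrays give ratios only, so no summed level of these markers can be stated.

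Among the pathway lists, water deficit and abscisic acid genes had a median floret ratio of -0.72 over 5 features. That value is one of the 3 PMP3 features (-0.72, -0.85 and -0.98), a name singled out by the rule on this same ratio, and 2 of them met the limits. The other features of that list, dhn2, a dehydrin, and asr1, had -0.48 and -0.04. The list for cell cycle, replication and histones had a median of -0.19 with 31 of 37 features below 0. It holds 3 cyclotide features, defence peptides taken in by the start of their name, and without them 31 of 34 were below 0, with a median of -0.21. Heat shock and chaperone genes had -0.16 with 23 of 25 below 0. Among them were the hsp22 features (-0.99 and -1.09), a name singled out by the rule on this same ratio. Over all features 5811 of 12160 were below 0. Genes repeat in these lists (37 cell cycle features of 16 genes and 25 heat shock features of 11 genes), so the counts are not independent. The medians were 0.05 for jasmonate and oxidative stress (64 features), 0.11 for defence and protease inhibitors (8), -0.01 for cell wall (29, or 27 without a starch and a lipid gene that share the prefix agp, with the same median), -0.01 for fermentation (18) and 0.03 for ribosomal proteins (22). Each of the lists for defence, cell wall and ribosomal proteins held 1 feature that met the limits and was left out by name. The lists for jasmonate and for fermentation also held names left out by the rule, TIFY2 and LDH.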

How the data were processed

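The values deposited by the authors, 1 per feature and scan, were read as natural log ratios of both channels. The labels give no base; of 850422 distances between values that repeat, 61 equalled 2 logs of a whole number up to 9, within 5e-06, if read as natural logs, against 19 if read as log2 and 8 as log10. The normalisation software was not given in the sources used here. Scan medians were -0.0253 to 0.0327 (natural log) and no value was missing. Spot signals were not used, and the number of pools limits the precision.

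Scan medians were removed, values were converted to log2, and the 3 scans of each slide were averaged. Floret slides were used as deposited. In 10 closed squares of stage and floret slides the sides had r of 0.266 to 0.483 so, and of -0.0497 to 0.0522 when floret slides were turned by the dyes. Dye swaps had r of 0.159 to 0.570 over all features and 0.251 to 0.963 over the 70. Pool values were fitted by least squares within each ring of 6 stage slides (1 floret, 1 set; MASS 7.3.60.0.1, R 4.3.3). They were tested with limma 3.58.1, with the ring as a block because both pools of a slide carry the same replicate number. A feature passed at a Benjamini-Hochberg adjusted p under 0.05 over all 12160 features, and over the 5 steps together. The fit was tested on simulated data.

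The features and the lists were chosen with earlier results of these data known. The text names features with a gene name, the 10 with the lowest mean, the 5 largest changes per direction and stage test, those within 0.02 of the limit and other features of the same gene; the remaining single features were named after their values were seen. Genes come from the array annotation, with 24 gene numbers matched in the maize reference. Promoter motifs and sequences were not analysed here. Alternatives were single scans, the median of scans, columns scaled to one spread, all 48 slides, no replicate block, 1 dye order, floret slides turned by the dyes, and each pool or set left out. Python 3.11.15 and matplotlib 3.10.9 were used for the plots.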

Additional observations from a re-analysis of the deposited data

How the results depend on the processing

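The rule gave 50 to 91 features with a single scan, the median of scans, scaled columns or 1 dye order. Of the 70, it kept 59 with the low, 53 with the medium and 45 with the high scan alone. It kept 52 with the median of scans and 69 with scaled columns. With the upper floret in Cy5 only it kept 52, and in Cy3 only 49. It gave 89 features from set 2 alone (46 of the 70 among them) and 218 from set 1 alone (67 of the 70). With floret slides turned by the dyes in the labels only 2 features met the limits, none of the 70, so the features rest on using these slides as deposited. Calls of the array moved with those of the 70 in most of these settings. Scaling columns to one spread lowered the stage calls among the 70 to 8 (upper F test), 7 (lower F test), 6 (upper first to last), 6 (lower first to last) and 6 (steps). Over the array it lowered them to 2812, 2386, 867, 1046 and 2244, from 3965, 3887, 2766, 3041 and 3009. The high scan alone lowered the steps to 6, and to 2761 over the array. Without the replicate block, the calls were 17 (upper F test), 14 (lower F test), 18 (upper first to last), 18 (lower first to last), 0 (interaction) and 15 (steps), and over the array 5457, 5228, 3636, 3842, 1 and 4331. The block was kept because both pools of every slide share a set. Leaving out single pools gave 8 to 15 calls for upper first to last (8 without the upper meiocyte pool of set 1, 1435 over the array) and 8 to 16 for lower first to last. For the latter it was 9 without the lower meiocyte pool of set 2 and 8 without the lower mid/late pool of set 2 (1812 and 1957 over the array). Steps gave 4 to 12, the upper F test 9 to 13, the lower F test 9 to 14 and the interaction 0 to 0. Of 868 values of single features under alternatives (28 calls under 31 alternatives each), 133 were no longer past the threshold, 16 of them with scaled columns. None changed direction, but 24 of the 31 alternatives leave out a pool. A pool outside the first and last stage of the floret tested leaves the estimate as it was, and only the adjusted p can move. Direction was thus fixed in advance for those values, and the counts out of 868 do not measure how robust the calls are. The cause of the changes in calls was not tested. With 2 pools a group, differences of the size of the standard errors given could not be detected.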
